A study of Mus musculus with 6 samples.

Results

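The nuclear factor I (NFI) genes Nfia, Nfib, Nfic and Nfix were examined for H3K4me1, the monomethylated form of lysine 4 of histone H3, in the whisker pad of the mouse embryo. They are 4 of the 21755 protein-coding genes of the GENCODE annotation, and were chosen by name. For each gene, every H3K4me1 peak over the gene body or its 5 kb flanks was taken, and in addition every peak up to 300 kb away whose nearest protein-coding start site is that gene's; the second kind is called distal here. The samples were whole whisker pads of wild-type embryos at embryonic day 12, of a strain labelled B6/J2, digested to single cells and processed by CUT&Tag, which cuts out and tags DNA near the mark with a transposase tethered through an antibody. Peak lists of 3 H3K4me1 samples were used, numbered 1, 2 and 3 as the pads are in the titles, and 3 samples made with control IgG were not analysed here. For replicates 2 and 3 the source name reads adult kidney although the title reads whisker pad. The pad holds mesenchyme, epithelium, nerve and vessel together, so a peak cannot be placed in a cell type, and fewer marked cells cannot be told apart from less mark per cell.

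NFI proteins are transcription factors that bind DNA as dimers, each partner reading the sequence TTGGC on one strand, and they can activate or repress their targets. Nfia and Nfib are best known for the onset of glial development in the brain, Nfib also for lung maturation and for the stem cells of the hair follicle. Nfic is known for the growth of tooth roots, and Nfix for the switch from embryonic to fetal muscle and for neural stem cells. H3K4me1 marks enhancers in use or in waiting, and the flanks of active promoters, whose centre carries trimethylation instead.

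The lists held 16788, 12969 and 13998 peaks in replicates 1, 2 and 3, with a median length of 2981, 3682 and 3352 bp. Total signal, the sum of the fragment pileup over a peak, was not scaled to depth, so a peak is given by its percentile, the percent of peaks in the same list with a total signal at or below its own. The read depth of the libraries is unknown from these files. Because the source names disagree with the titles, 16 facial mesenchyme and 16 adult kidney genes were looked up. Of the mesenchyme genes, 16, 13 and 15 had a peak in the body or flanks in replicates 1, 2 and 3, and of the kidney genes 5, 4 and 2. The kidney genes with a peak in all 3 replicates were Slc12a1 and Cubn. Over all protein-coding genes the share with a peak was 24.9, 22.6 and 19.6%. The marks of replicates 2 and 3 thus lay at more of the mesenchyme genes than of the kidney genes.

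All 4 NFI genes carried peaks in all 3 replicates, as did 15.5% of all protein-coding genes and 34.4% of the 5000 with a body of at least 50 kb. Together they held 47, 35 and 47 peaks over their bodies and flanks, a mean of 43 ± 6.93 (SD, n = 3). These were 0.280, 0.270 and 0.336% of the peaks of the lists. They held 0.551, 0.541 and 0.544% of the signal in peaks, a mean of 0.545 ± 0.00534% (SD, n = 3). The number of peaks thus varied between replicates by more than their summed share of the signal did. The steady sum hid opposite shifts of single genes. Nfix held 0.257, 0.270 and 0.144% and Nfic 0.0428, 0.0475 and 0.0139%, lowest in replicate 3. Nfib held 0.169, 0.151 and 0.264% and Nfia 0.0819, 0.0721 and 0.121%, highest in replicate 3. The 4 genes lie at very different lengths and GC contents. Nfia (ENSMUSG00000028565, chr4:97772734-98118874, plus strand) is 346 kb long, and Nfib (ENSMUSG00000008575, chr4:82290173-82705750, minus strand) is 416 kb long, and their windows have a GC content of 41.3 and 41.8%. Nfic (ENSMUSG00000055053, chr10:81396186-81455635, minus strand) is 59.5 kb long and Nfix (ENSMUSG00000001911, chr8:84699876-84800344, minus strand) 100 kb, with a GC content of 53.6 and 53.0%. All coordinates are of the mm10 build (GRCm38) and count from 1.

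To show what the mark lay on, the region of highest mean percentile at each gene is given by the 300 bases around its highest pileup, where most fragments overlapped. Each is given 5′ to 3′ on the plus strand of mm10, and capitals mark the bases of highest pileup of any replicate that fall within it. The windows are chr4:98105904-98106203 for Nfia, chr4:82532314-82532613 for Nfib, chr10:81402827-81403126 for Nfic and chr8:84742045-84742344 for Nfix.
Nfia: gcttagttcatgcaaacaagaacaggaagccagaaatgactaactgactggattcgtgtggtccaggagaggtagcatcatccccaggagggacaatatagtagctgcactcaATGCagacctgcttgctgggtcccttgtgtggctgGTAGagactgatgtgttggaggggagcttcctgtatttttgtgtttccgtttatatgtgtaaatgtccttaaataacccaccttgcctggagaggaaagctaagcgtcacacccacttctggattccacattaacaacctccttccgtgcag
Nfib: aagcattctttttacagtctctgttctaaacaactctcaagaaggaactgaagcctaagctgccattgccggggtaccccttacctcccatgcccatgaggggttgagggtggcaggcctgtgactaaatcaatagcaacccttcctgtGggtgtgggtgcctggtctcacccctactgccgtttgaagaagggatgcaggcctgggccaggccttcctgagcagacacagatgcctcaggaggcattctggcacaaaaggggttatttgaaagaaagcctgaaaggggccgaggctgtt
Nfic: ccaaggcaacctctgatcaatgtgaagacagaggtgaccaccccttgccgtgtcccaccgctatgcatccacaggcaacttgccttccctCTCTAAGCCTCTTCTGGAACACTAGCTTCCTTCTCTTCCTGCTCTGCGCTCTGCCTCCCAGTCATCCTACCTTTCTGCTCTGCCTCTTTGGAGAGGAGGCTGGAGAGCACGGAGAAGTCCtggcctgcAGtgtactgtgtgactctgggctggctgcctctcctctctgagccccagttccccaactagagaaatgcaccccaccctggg
Nfix: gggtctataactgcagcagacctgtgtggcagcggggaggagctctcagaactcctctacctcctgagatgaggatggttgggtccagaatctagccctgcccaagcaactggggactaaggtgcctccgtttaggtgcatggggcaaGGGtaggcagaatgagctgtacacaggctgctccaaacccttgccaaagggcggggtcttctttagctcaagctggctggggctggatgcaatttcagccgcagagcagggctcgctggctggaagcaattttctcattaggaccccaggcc
All 4 windows lie in introns of their genes. The windows of Nfia, Nfic and Nfix lie in intron 10 of Nfia-202, intron 9 of Nfic-207 and intron 2 of Nfix-202, the transcripts with the longest genomic span, and that of Nfib lies upstream of Nfib-203, in an intron of the form that begins at the far 5′ start. The highest pileup of 2, 1, 3 and 2 replicates fell inside the Nfia, Nfib, Nfic and Nfix windows. The GC content of the windows was 48.0, 53.7, 57.7 and 57.7%, and 7, 0, 14 and 6.67% of their bases were repeat-masked.

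**Figure D1:**
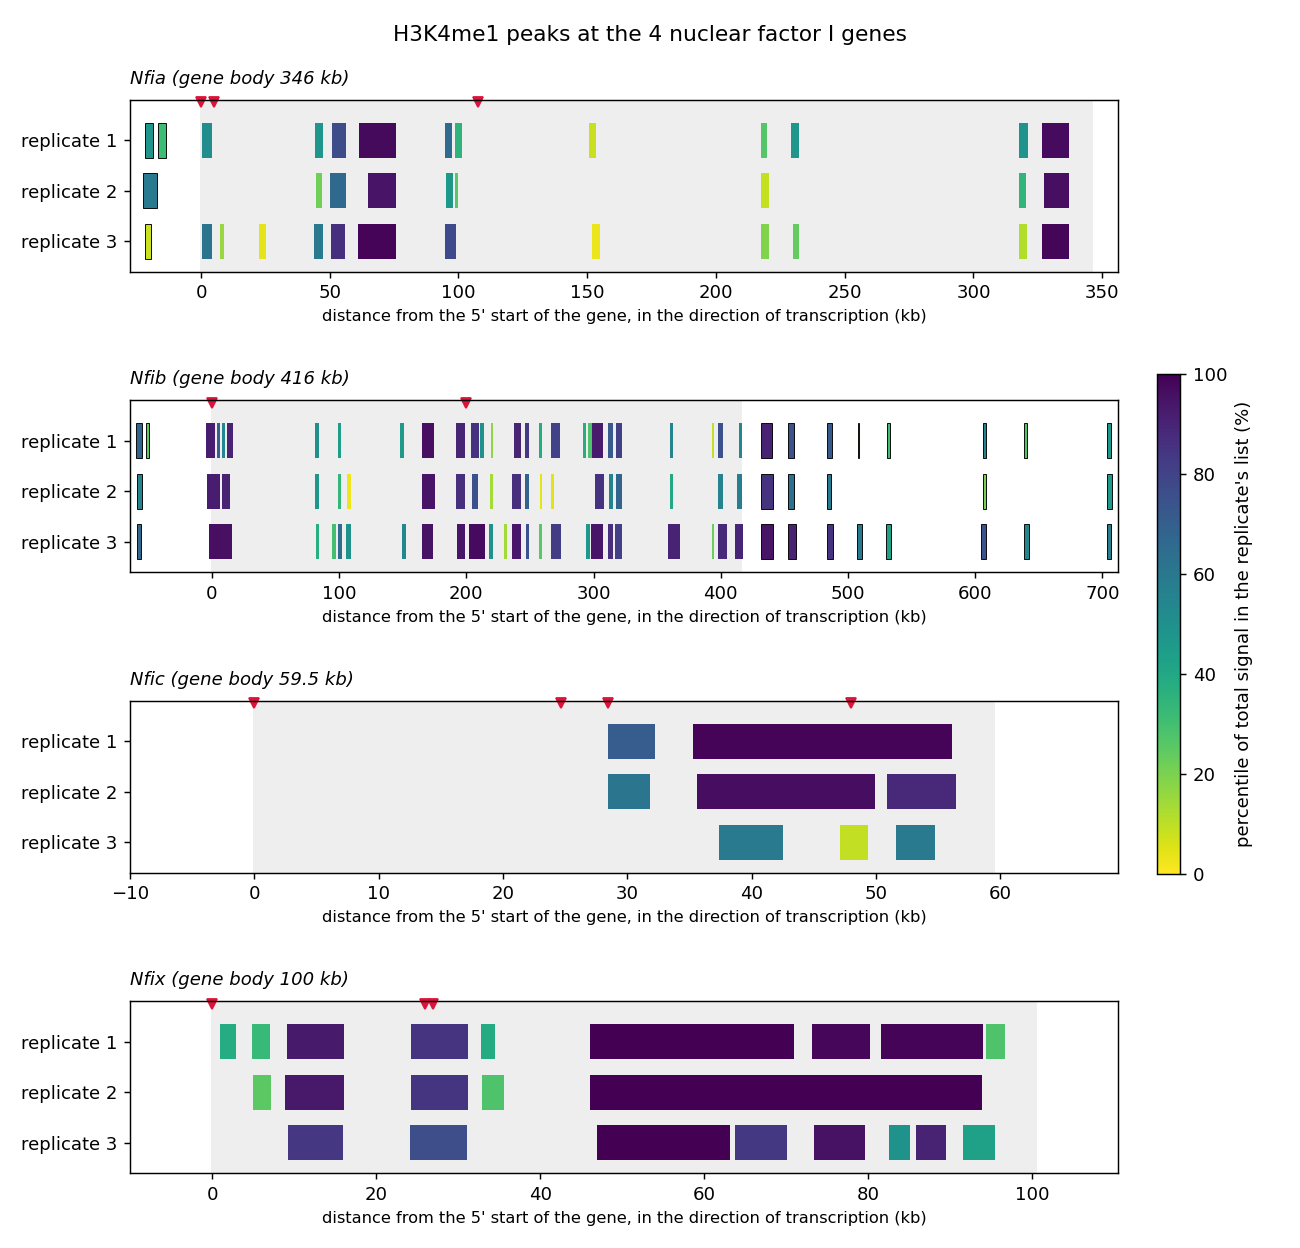
H3K4me1 peaks at each NFI gene by distance from its 5′ start in the direction of transcription (kb, a separate scale for each gene), 1 row per replicate. Colour is the percentile of total signal in the replicate's list, grey is the gene body, red triangles are start sites and black outlines are distal peaks. Nfix is dominated by a single broad block near its 3′ end, and the distal peaks of Nfib continue past the end of the gene.

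Nfix was the most heavily marked of the 4 for its length. Its peaks numbered 9, 5 and 8 in replicates 1, 2 and 3 and covered 60.1, 60.5 and 47.6% of the gene body and flanks, a mean of 56.1 ± 7.34% (SD, n = 3). By that share it ranked 117 of the 21755 protein-coding genes, of which the median gene had 0% covered. Its median peak stood at percentile 85.2, 84.6 and 84.1, a mean of 84.6 ± 0.541 (SD, n = 3). Replicate 3 was the lowest in both, clearly in covered share and by little in percentile.

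Most of the Nfix signal came from a single block of 50.7 kb, chr8:84703612-84754275, which runs from near the 3′ end of the gene into intron 2 of Nfix-202. It also contains all of G430095P16Rik and, through a peak of replicate 1, the end of Lyl1, a haematopoietic transcription factor gene. Replicate 2 had it as 1 peak of 47.9 kb, whereas replicate 1 had it as 4 peaks and replicate 3 as 6. Outside the block Nfix had 5, 4 and 2 peaks in replicates 1, 2 and 3, so its number of peaks depends in part on how the block was cut. In replicate 2 the block was the strongest peak of the whole list, at rank 1. The strongest peak within it stood at rank 8 in replicate 1 and at rank 19 in replicate 3. The highest pileup was 434, 493 and 231, and the lists' median peak reached 37, 47 and 38. The position of highest pileup was 84742193 in replicate 2 and 84742194 in replicate 3, next to each other in the window printed above, and 84744989 in replicate 1. The block held 0.276, 0.269 and 0.151% of the signal of the 8917 regions shared by all replicates, lowest in replicate 3.

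Outside the block Nfix had 2 more regions in all 3 replicates. One, chr8:84784234-84791414, lies in intron 1 between 8.93 and 16.1 kb from the 5′ start, and stood at percentile 93.2, 93.6 and 84.3. The other, chr8:84769100-84776180, lies over the internal start sites at 84774369 and 84773396 and stood at percentile 85.2, 84.6 and 76.3. The positions of highest pileup in this internal region lay within 14 bp of each other in the 3 replicates, upstream of both start sites. Both regions stood lowest in replicate 3, in the way of the block. RefSeq places 3 Nfix promoters of 300 bases within the internal region, all wholly under the peaks of all replicates, and another at 84780082, between the regions, with 0 of its bases under a peak.

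Nfic, the shortest of the 4, had 2, 3 and 3 peaks. They covered 35.4, 33.6 and 15.1% of the gene body and flanks, a mean of 28.0 ± 11.3% (SD, n = 3), and the gene ranked 750 of 21755. Replicate 3 had less than the others, and without it the mean was 34.5 ± 1.27%. The main region, chr10:81399224-81420326, was 21.1 kb long and was called as 1, 2 and 3 peaks. Its strongest peak stood at percentile 98.9 in replicate 1, 96.5 in replicate 2 and 59.3 in replicate 3. These percentiles are of single peaks, so they depend in part on how the region was cut. In replicates 2 and 3 the highest pileup lay in another peak of the region, at percentile 88.9 and 59.0. The positions of highest pileup lay within 76 bp of each other in the 3 replicates, inside the window printed above. A second region, chr10:81423441-81427226, reached the start site of 3 protein-coding transcripts at 81427187 and was present in replicates 1 and 2, at percentile 70.8 and 61.1, and not in replicate 3. Nfic had 0 distal peaks in each replicate, as had Nfix.

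Nfib had the most peaks. There were 25, 19 and 24 in replicates 1, 2 and 3, which covered 24.5, 21.3 and 31.1% of the gene body and flanks, a mean of 25.6 ± 4.97% (SD, n = 3). In bases this was 104, 90.6 and 132 kb, and by the mean of 109 kb Nfib ranked 11 of all protein-coding genes, against 893 by share. Nfix, Nfia and Nfic ranked 80, 120 and 566 by bases covered. Long genes can hold more covered bases, so the order of the NFI genes turns with the measure. The median Nfib peak stood at percentile 70.9, 57.5 and 81.6, highest in replicate 3, and 5, 3 and 8 of its peaks were above percentile 90.

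Merging gave 24 Nfib regions, and 18 of them recurred in all 3 replicates. Of the 24, 10 lay in the 115-kb intron 2 of Nfib-203, and 9 had their centre upstream of the main start site at 82505770, in the part of the gene that only the form beginning at the far 5′ start covers, or at that start. The region of highest mean percentile was among the latter, chr4:82530232-82540734, at percentile 96.1, 94.6 and 95.0, which is 173 kb inside the gene from the far 5′ start. The next, chr4:82698803-82710464, covered the far 5′ start at 82705750 itself and stood at percentile 92.6, 92.2 and 96.4. It was followed at once by chr4:82689147-82698399, at percentile 90.5, 90.6 and 95.8, whose positions of highest pileup lay within 43 bp. In these 3 regions the replicates differed by less than 6 percentile points.

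Nfib was also the only one of the 4 with distal peaks far outside the gene. There were 10, 6 and 9, and all of them lay outside protein-coding genes. With those of Nfia, the distal peaks of the family had a mean of 9.67 ± 2.52 (SD, n = 3). The Nfib distal peaks merged into 10 regions, 8 of them past the 3′ end and 2 upstream. Of the 8 downstream regions 5 were in all 3 replicates, and of the 2 upstream regions 1. The strongest, chr4:82264600-82274037, began 16.1 kb past the 3′ end and stood at percentile 90.4, 85.5 and 94.8. The next regions outward stood at percentile 74.99, 62.8 and 90.6 at 37.2 kb, and at 72.1, 59.4 and 85.4 at 67.8 kb. The farthest, 288 kb past the end, stood at 46.7, 46.0 and 58.2. In each replicate the first of these was the strongest and the farthest was weaker than the first 3. The percentile did not fall steadily with distance in between. The region at 189 kb stood at 55.1, 20.2 and 74.6, above the farthest in replicates 1 and 3 and below it in replicate 2. The region at 223 kb stood at 27.2 and 53.2 in replicates 1 and 3, below the farthest in both.

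Nfia was the least marked for its length. It had 11, 8 and 12 peaks, which covered 15.01, 10.97 and 16.4% of the gene body and flanks, a mean of 14.1 ± 2.82% (SD, n = 3), at rank 1930 of 21755. Its median peak stood at percentile 48.3, 40.8 and 41.6, below the middle of each list, but a pair of its peaks in each replicate stood above percentile 90. One of these regions, chr4:98099243-98109994, lies in intron 10 of Nfia-202, near the 3′ end, and stood at percentile 97.0, 96.1 and 98.5. The other, chr4:97833705-97848509, is 14.8 kb long, lies in the 173-kb intron 2 and stood at percentile 97.5, 94.7 and 99.0. Of the 12 merged Nfia regions, 6 had their centre in that intron and 7 were in all 3 replicates.

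A weaker Nfia region had its highest pileup at the same base, 97827234, in all 3 replicates, and so had an Nfib region at 82384369. These were 2 of the 29 member regions with a peak in all replicates (6.90%), against 138 of all 8917 such regions (1.55%). At a limit of 100 bp between replicates the counts were 9 of 29 (31.0%) and 1898 of 8917 (21.3%), while the median spread was 903 bp at the NFI genes and 514 bp over all. The NFI regions thus included some of the most exact positions without having a smaller spread as a whole. The 100 bases around both positions, chr4:97827185-97827284 in intron 2 of Nfia-202 and chr4:82384320-82384419 in intron 2 of Nfib-203, are given in the same way as above, and 0% of their bases were repeat-masked. They were chosen for printing after their values were seen.
Nfia: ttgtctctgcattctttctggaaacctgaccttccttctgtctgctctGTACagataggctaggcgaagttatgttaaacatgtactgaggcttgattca
Nfib: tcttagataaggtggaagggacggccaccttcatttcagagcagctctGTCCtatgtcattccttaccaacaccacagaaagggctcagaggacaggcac
The Nfia region, chr4:97822930-97828935, stood at percentile 77.2, 66.2 and 86.2 with a highest pileup of 69, 81 and 107. The Nfib region stood at percentile 80.8, 68.1 and 80.9 with a highest pileup of 69, 62 and 49.

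The median length over all 4 genes was 3242, 3640 and 3987 bp in replicates 1, 2 and 3, a mean of 3623 ± 373 bp (SD, n = 3), beside the 2981, 3682 and 3352 bp of the whole lists. The median Nfix peak measured 6923, 6932 and 6264 bp and was above the list's median in each replicate. The median Nfic peak measured 12305, 5576 and 3066 bp, long in replicates 1 and 2 and below the list's median in replicate 3. The median Nfib peak measured 3202, 3640 and 4719 bp, and the median Nfia peak 2987, 2765 and 3342 bp. The longest Nfia peak was 14.4, 11.03 and 14.8 kb and the longest Nfib peak 9.89, 10.5 and 12.7 kb. The longest Nfix peak was 24.9, 47.9 and 16.2 kb, the longest of the 4 genes in each replicate but close to that of Nfia in replicate 3. Per 100 kb of body and flanks there were 6.64 ± 1.88 peaks at Nfix, 5.33 ± 0.755 at Nfib, 3.84 ± 0.831 at Nfic and 2.90 ± 0.585 at Nfia (SD, n = 3). Of all the NFI peaks, 12, 8 and 13 stood above percentile 90, which is 25.5, 22.9 and 27.7% of them, where a whole list has about 10% by construction. The median over the 4 genes was percentile 65.8, 61.1 and 75.6, a mean of 67.5 ± 7.37 (SD, n = 3).

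The tallest pileup did not always go with the largest total. The Nfib region chr4:82456226-82459744, named after its values were seen, was only 3.52 kb long and stood at percentile 83.7, 69.2 and 75.6 of total signal. Its pileup of 168, 115 and 72 was nevertheless above that of the Nfib region with the highest mean percentile, at 63, 72 and 63. Its positions of highest pileup lay within 39 bp.

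The covered shares give the order Nfix, Nfic, Nfib and Nfia. Nfix exceeded Nfic in 3 of 3 replicates by 28.0 ± 4.05 percentage points (SD, n = 3), and Nfib exceeded Nfia in 3 of 3 by 11.5 ± 2.77 points. Nfic exceeded Nfib in 2 of 3 replicates, by 2.43 ± 16.0 points, and in replicate 3 the order was turned. In an exact two-sided sign-flip permutation test over the 3 replicates these differences had p = 0.25, 0.25 and 1, with Benjamini-Hochberg adjusted values over the 3 pairs of 0.375, 0.375 and 1. The smallest p that 3 replicates allow is 0.25, so no pair could pass 0.05. The replicates are separate pads by their titles, and nothing states whether they came from separate litters.

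**Figure D2:**
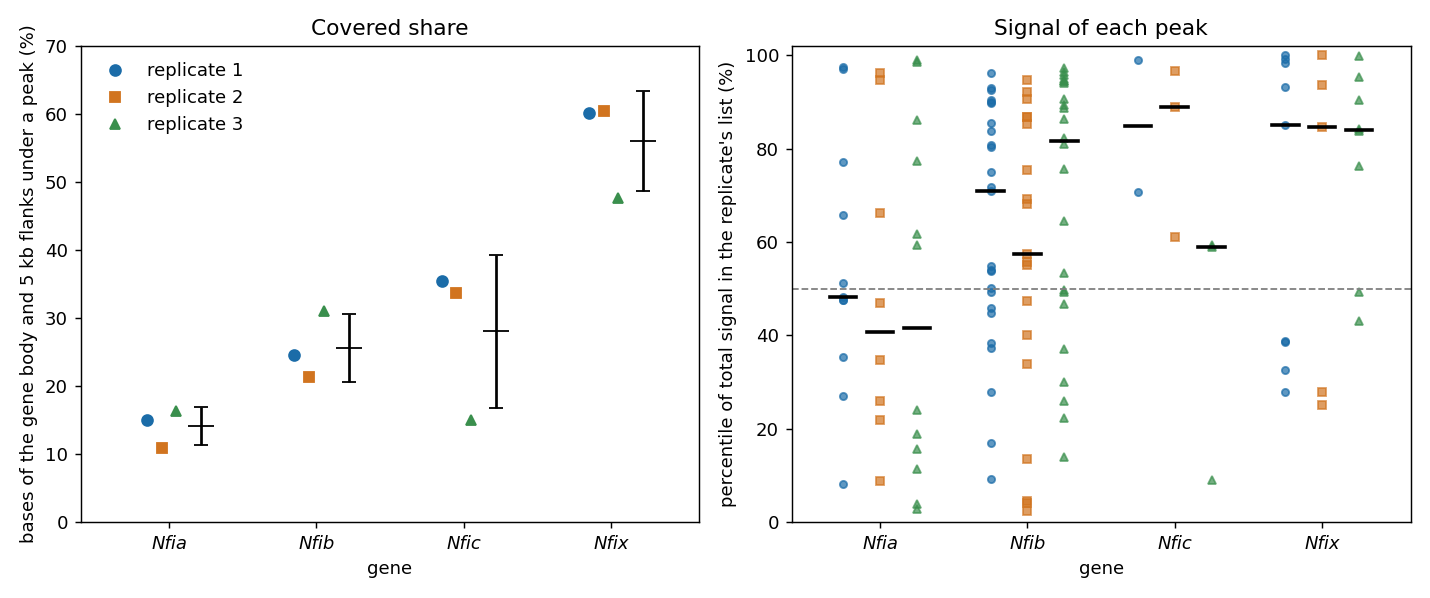
Left, percent of the bases of the gene body and 5 kb flanks under a peak, for each NFI gene and replicate (points), with the mean and SD of 3 replicates (black). Right, percentile of total signal of every peak over the gene body and flanks, with the median per replicate as a black bar and the middle of a list at 50 as a dashed line. Nfix lies highest at left in every replicate, and replicate 3 lies low at Nfic and high at Nfib.

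Of the 44 merged regions over bodies and flanks, 29 (65.9%) recurred in all 3 replicates, 9 were in 2 and 6 in 1, whereas 46.3% of all merged regions were in all 3. The centres of 42 lay in introns, of 2 outside the gene and of 0 in an exon. The same was not counted over all regions, so the count cannot be read as a trait of the members. Nfia and Nfib hold long introns, such as those of 173 kb and 115 kb, whereas the centre of the main Nfic region lay in an intron of 2.28 kb. The part of intron length in the count was not tested.

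A minority of the NFI start sites lay under a peak in all 3 replicates. Sites of a gene within 500 bp were counted as 1, which left 12. Of these, 4 lay under a peak in all 3 replicates, namely the far 5′ start of Nfib, the internal Nfic start at 81407641 and both internal Nfix starts. Both internal Nfix starts lay under the same peak in each replicate. Over all 54050 protein-coding start sites, counted singly, 2.98% lay under a peak in all replicates and 5.43% had one within 1 kb. The NFI sites were grouped and these were not, so the shares were not counted alike. The 5′ start of Nfib has 1 transcript, a GC content of 48.8% and a CpG ratio, observed over that from base composition, of 0.236 in the surrounding kb.

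The start sites not under a peak in all replicates differed in where the nearest peaks lay. The main Nfib start at 82505770, with 6 transcripts, a GC content of 61.7% and a CpG ratio of 0.835, sat in a peak-free gap of 4.82, 5.04 and 3.42 kb, with peaks on both sides in every replicate. The upstream peak ended 1.03, 0.706 and 1.21 kb before the start, and the downstream peak began 3.79, 4.33 and 2.21 kb after it. The flanking regions were strong, at percentile 89.8, 86.7 and 94.4 upstream and at 85.4, 75.5 and 97.3 downstream. The main Nfia start at 97777608, with 5 transcripts, a GC content of 68.7% and a CpG ratio of 0.931, was also free of a peak in all 3 replicates. There a peak lay 0.506 and 0.519 kb upstream in replicates 1 and 3, while in replicate 2 the nearest was 21.8 kb upstream. The Nfix start at 84800344, with 3 transcripts, a GC content of 74.8% and a CpG ratio of 1.12, had a peak 0.987 kb downstream in replicate 1 and none nearer than 4.95 and 9.29 kb in replicates 2 and 3. The main Nfic start at 81427187, with 3 transcripts, a GC content of 61.8% and a CpG ratio of 0.493, lay under a peak in replicates 1 and 2, whereas in replicate 3 the nearest began 8.90 kb downstream. The Nfic starts at 81455635 and 81431005, with a CpG ratio of 0.325 and 0.810, had 0 peaks within 1 kb in each replicate.

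**Figure D3:**
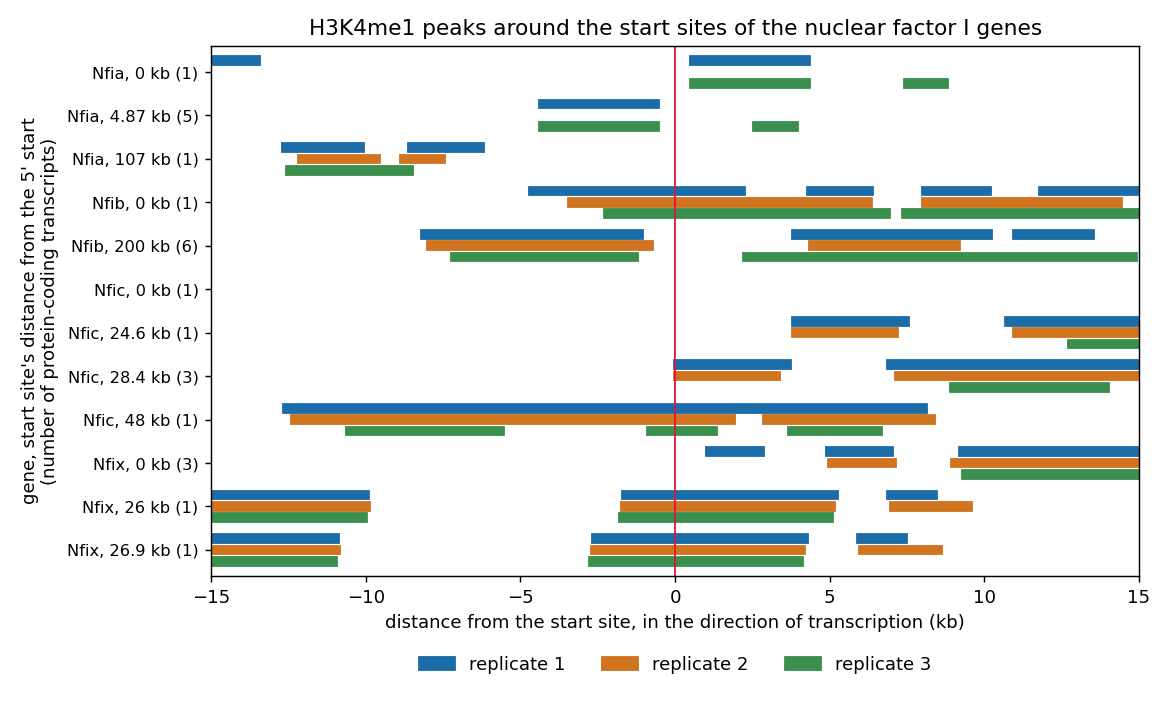
H3K4me1 peaks within 15 kb of each start site of the NFI genes, drawn by distance from the site in the direction of transcription (kb), 1 coloured bar per peak and replicate. Rows give the gene, the distance of the site from the gene's 5′ start and, in brackets, its number of protein-coding transcripts. The main Nfib start, 200 kb into the gene, lies between peaks in every replicate, while both internal Nfix starts lie under one.

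Upstream of Nfia the assignment of peaks depended on the annotation. GENCODE begins the gene at 97772734, and by that the Nfia distal peaks numbered 2, 1 and 1. All of these lay within E130114P18Rik, a gene on the other strand that runs from 97568133 to 97778078 and so overlaps the Nfia start. The strongest of them in mean percentile, chr4:97750151-97755820, stood at percentile 47.8, 59.2 and 8.19. In the 300 kb upstream there were 15, 10 and 9 peaks, of which 13, 9 and 8 had E130114P18Rik as the nearest start. RefSeq begins an Nfia transcript at 97581943, which is 191 kb upstream and inside E130114P18Rik. A peak covered that site in all 3 replicates, 3.28, 10.5 and 14.4 kb long and at percentile 66.3, 91.7 and 99.1. Length and percentile were both lowest in replicate 1 and highest in replicate 3. When peaks were assigned by the 5′ ends of genes alone, the Nfia distal peaks numbered 14, 10 and 9. Because the peaks bear on this start, the 250 bases before it, chr4:97581693-97581942, are given 5′ to 3′ on the plus strand from the RefSeq promoters, with capitals marking CTTTGAT, the sequence read by the TCF and LEF factors of the Wnt pathway.
Nfia upstream start: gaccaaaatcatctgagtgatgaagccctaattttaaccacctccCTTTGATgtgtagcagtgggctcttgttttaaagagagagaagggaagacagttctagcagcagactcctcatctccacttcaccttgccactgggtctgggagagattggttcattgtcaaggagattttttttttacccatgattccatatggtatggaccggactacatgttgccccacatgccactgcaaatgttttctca
CTTTGAT occurred in 3.73% of the 32851 RefSeq promoters on either strand, and in 0 of the other 5 RefSeq promoters of the NFI genes. Other motifs searched there were found too. The AP-1 motif TGANTCA was in the Nfic promoter and the Nfix promoter at 84780082, beside 7.81% of all promoters. TTGGC was in the Nfix promoters of the internal region, beside 46.7% of all. Around the highest pileup CTTTGAT was in 0 of 47, 1 of 35 and 1 of 47 peaks over the NFI bodies and flanks (0, 2.86 and 2.13%), beside 3.66, 3.55 and 4.52% of all peaks. A match of letters is a description of the sequence.

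In replicate 3 the 2 AT-rich genes, Nfia and Nfib, stood higher and the 2 GC-rich genes, Nfic and Nfix, lower than in replicate 2. The share of signal in shared regions was 0.0898, 0.0831 and 0.125% at Nfia and 0.198, 0.171 and 0.294% at Nfib in replicates 1, 2 and 3. It was 0.0458, 0.0482 and 0.0167% at Nfic and 0.305, 0.304 and 0.173% at Nfix. On the log2 scale replicate 3 thus differed from replicate 2 by 0.58 at Nfia, 0.78 at Nfib, -1.53 at Nfic and -0.81 at Nfix. Replicate 1 differed from replicate 2 by 0.11, 0.21, -0.07 and 0.00 at the same genes. Of the shared regions, 6 of 7 at Nfia and 16 of 18 at Nfib had a higher share in replicate 3 than in replicate 2, but 0 of 1 at Nfic and 0 of 3 at Nfix; over all 8917 shared regions 57.4% did. The GC content moves with these values. The median GC content of the merged regions was 42.3% at Nfia, 42.8% at Nfib, 59.0% at Nfic and 55.4% at Nfix, and over all shared regions the median log2 difference went from 0.98 in the lowest of 10 equal classes of GC content (median 41.4%) to -0.84 in the highest (median 54.5%). The part of GC content in the differences at the NFI genes was not tested.

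**Figure D4:**
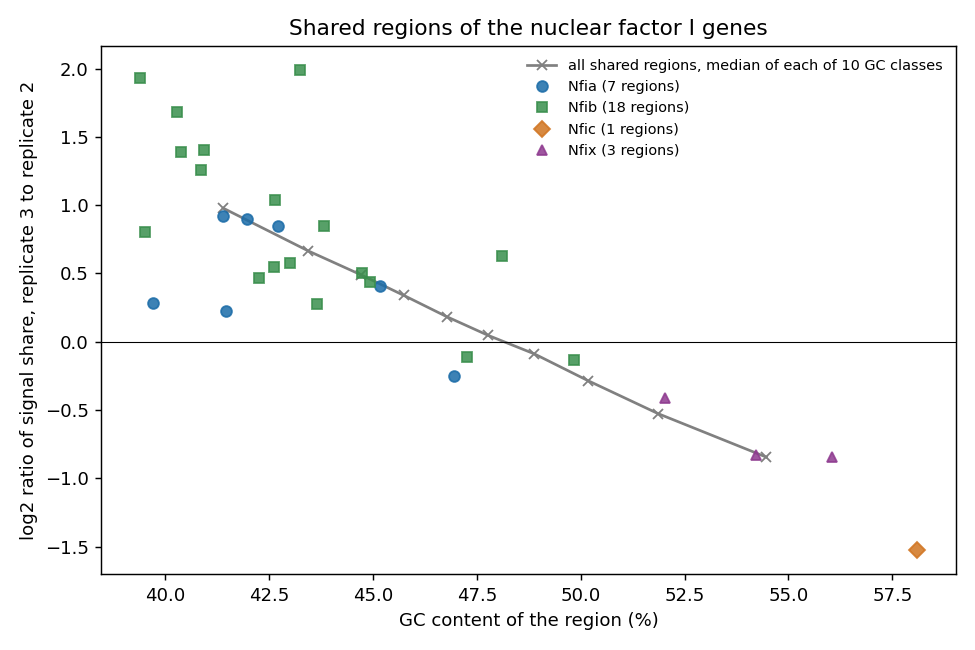
Log2 ratio of the share of signal in replicate 3 to that in replicate 2 against GC content (%), for the 29 NFI regions with a peak in all replicates (coloured points) and for all 8917 such regions as medians of 10 equal GC classes (grey line). Nfix and Nfic points lie below 0 and most Nfia and Nfib points above it, on the side where the grey line lies.

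The genes most alike to each NFI gene in covered share were sought among the 10068 protein-coding genes with a body of at least 20 kb. Likeness was the sum of absolute differences in covered share over the 3 replicates, in percentage points. For Nfia these were Zbtb25 (1.69), Eif3h (2.21) and Srbd1 (2.49), and for Nfib they were Fmnl2 (2.05), Ets1 (3.87) and Pax1 (4.38). For Nfic they were Llgl2 (1.91), Nol4l (3.92) and Igdcc3 (5.53), and for Nfix they were Capzb (6.56), Tle3 (6.74) and Traf3ip2 (7.22). Likeness in how the replicates differ follows from this choice.

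Genes known as partners or targets of NFI factors in glia, skin, tooth, muscle or lung were then looked up. Of 16 genes, 7, 8 and 8 had a peak in replicates 1, 2 and 3 (43.8, 50 and 50%), beside the 24.9, 22.6 and 19.6% of all genes given above. The 5 genes with a peak in all replicates were Apcdd1, an inhibitor of Wnt signalling, Hes1, a Notch effector, Sox9, Sp7, a bone and tooth transcription factor, and Nfatc4. Sp7 was covered over 67.7, 51.8 and 39.6% of its body and flanks and Hes1 over 37.6, 73.7 and 53.8%. Sox9 was covered over 29.6, 28.0 and 24.2%. The glial genes Gfap and Fabp7 had 0 peaks in each replicate, as had Mmd2, Insc, the dentin gene Dspp and the muscle gene Ckm.

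Motifs of letters were counted in the 300 bases around the highest pileup of each peak, on both strands. The full NFI palindrome, TTGGC and GCCAA 5 bases apart, was in 0 of 47, 0 of 35 and 0 of 47 peaks at the NFI genes in replicates 1, 2 and 3, and in 0.0774, 0.0925 and 0.0786% of all peaks. TTGGC alone was in 46.8, 51.4 and 38.3% of the peaks at the NFI genes and in 44.7, 46.3 and 42.9% of all peaks. The share at the NFI genes was above that of all peaks in replicates 1 and 2 and below it in replicate 3. Among the distal NFI peaks TTGGC was in 58.3, 57.1 and 70% of 12, 7 and 10 peaks, above the share of all peaks in each replicate. Of the 4 windows printed first, only that of Nfix contains TTGGC, once, on the minus strand. The AP-1 motif TGANTCA was in 12.8, 11.4 and 8.51% of the NFI peaks and in 8.40, 8.41 and 9.28% of all peaks.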

How the data were processed

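The authors made one peak list per H3K4me1 sample. Per the submitters' processing notes, Bowtie2 2.3, SAMtools 0.1.19, bedtools and SEACR 1.3 were used with the mm10 build. Peaks were called in SEACR's stringent mode without IgG, keeping the top 1% of signal blocks, so peak numbers are no measure of enrichment. The deposited total and maximum signal columns are whole-number pileup without scaling to depth. The treatment of duplicate reads is not given in the sources used here.

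Positions were read with Python 3.11.15 and pysam 0.24.0 and set against GENCODE M21, and figures were drawn with matplotlib 3.10.9. Peaks were assigned by their position of highest pileup, and peaks overlapping by at least 1 bp were merged across replicates. The centre of a region is the median of the replicates' positions, and its percentile in a replicate is that of its strongest peak. Start sites within 500 bp were grouped, and their GC content and CpG ratio were taken over 1001 bp. Counting was tested on simulated data. Values are means ± SD over replicates, and the order of covered shares had an exact sign-flip permutation test. Alternatives changed the strength of peaks, joining, flanks, overlap, distal limit, start sites, signal measure and the replicates used. The rule for naming took the 4 genes, per gene the region at the 5′ start, the 3 strongest regions in all replicates and the strongest distal one, listed partner genes with a peak in all replicates or in none, the 3 most alike genes and the hosts of distal peaks. The regions beside the main Nfib start, the distal regions after the first and those at one shared base were named after their values were seen. The marking of CTTTGAT was not part of the rule. The genes and lists were chosen with earlier results of these data known. RefSeq promoters (GRCm38.p6) matched Nfia, Nfic and Nfix.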

Additional observations from a re-analysis of the deposited data

How the results depend on the processing

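The 8 results on the family and the gene lists were recomputed under 62 alternatives, of which 15 moved beyond the limit used, 1.5 times for counts and 1 SD for other values. With the stronger 50% of each list, the NFI genes held a mean of 26.7 peaks, 27.0% covered, 19 regions in all replicates and 6 distal peaks. Partner, mesenchyme and kidney genes with a peak were then 29.2, 81.2 and 8.33%. With the 10000 strongest peaks, partner and kidney genes were 37.5 and 10.4%. Without flanks, partner and mesenchyme genes were 37.5 and 81.2%, and with flanks of 20 kb the covered share was 25.7% and the partner share 54.2%. A distal limit of 100 kb left a mean of 6.33 distal peaks, and assignment by 5′ gene ends alone gave 17.7, of which Nfia held 11 in place of 1.33. Stricter selection keeps fewer peaks by construction, and wider flanks add bases. The share over all protein-coding genes was not recomputed with fewer peaks or other flanks. The gene list shares under those settings therefore have no background beside them and cannot be read as an excess or a lack. Leaving out each replicate in turn gave 41 to 47 peaks, 29.6 to 32.7% covered, 31 to 36 regions in the remaining replicates, 8.50 to 11 distal peaks and a median percentile of 63.4 to 70.7. It gave partner shares of 46.9 to 50%, mesenchyme shares of 87.5 to 96.9% and kidney shares of 18.8 to 28.1%. The mean percentile was 63.9 to 69.4 under the other alternatives. At least 50% reciprocal overlap left 20 of the 29 shared regions. Of 96 alternative values for single genes 10 moved, among them the covered share of Nfix, which was 44.1% with flanks of 20 kb; the order Nfix, Nfic, Nfib, Nfia turned between Nfic and Nfib in replicate 3, with flanks of 20 kb (20.2 and 24.7%), without replicate 1 (24.3 and 26.2%) and without replicate 2 (25.2 and 27.8%). No paired analysis was possible because one group alone was analysed, the H3K4me1 samples. The lists hold no read numbers and only the top 1% of blocks, so a gene without a peak may still carry the mark below that limit.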
